A study of Rattus norvegicus with 30 samples.

Results

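The maternal diet effect was followed in the kidneys of male pups of the stroke-prone spontaneously hypertensive rat (SHRSP), as the difference between 15 arrays from pups of dams fed 9% casein during pregnancy (LP) and 15 arrays from pups of dams fed 20% casein (CN). These 30 arrays were all the arrays of the series, with 5 in each of the D5-LP, D5-CN, D10-LP, D10-CN, D28-LP and D28-CN groups, named by postnatal day. All dams received a commercial diet after delivery, so the groups differed in the diet before birth, and the pups, also given commercial chow after weaning, were sampled as whole kidneys. For each probe set the LP minus CN difference was taken within each day, and the mean of the 3 differences is the averaged diet effect described here, with the genes that differed in the same direction at D5, D10 and D28. In the methods the RNA of a group is described as pooled, while the labels describe its 5 arrays as biological replicates, and no source used here tells which pups shared a dam. P-values are therefore about array-to-array spread, part or all of which may be technical.

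Protein restriction in pregnancy is a standard model of fetal undernutrition. In the rat, nephrons go on forming in the first days after birth and the medulla with its collecting ducts grows and matures during lactation, so the arrays span late nephron formation (D5), its end (D10) and the weanling kidney (D28). A difference present at all 3 days is therefore one that was measured against very different developmental backgrounds. Differences are on the log2 scale of the deposited values, and a positive value means higher in LP.

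Averaged over the days, the diet effect was small. Of 31042 probe sets, 124 were higher (0.399%) and 137 were lower (0.441%) in LP kidneys than in CN kidneys at an adjusted p under 0.2 (limma with day as a block, Benjamini-Hochberg, 261 or 0.841% in all). At an adjusted p under 0.05, 2 probe sets passed, *Galnt5*, which was lower, and *Phf14*, which was higher. The median size of the difference over the 261 probe sets was 0.17, the largest was 0.83 for *Pof1b*, and none exceeded 1. Most calls lay close to the threshold, with 228 of the 261 at adjusted p-values between 0.18 and 0.2. The number called moved widely with the processing, to 18 higher and 31 lower after quantile normalization and to 286 higher and 1137 lower after median centring of the arrays, which changes the split between the directions. Without a day, and so with fewer arrays, it was 6 without D5, 11 without D28 and 0 without D10. Without D10 the smallest adjusted p was 0.32 (limma), with 3284 probe sets at an unadjusted p under 0.05. The number called was between 3 and 1334 when any single array was left out, and 1 (*Galnt5*) when a medulla marker score was added to the fit.

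Of the 261 probe sets, 259 had the same sign at all 3 days (122 higher and 137 lower), and 2 had mixed signs. The sign and the averaged effect come from the same values, so this count is a description. Over all probe sets, 9663 had the same sign at all 3 days (31.1%), of which 3963 were higher (12.8%) and 5700 were lower (18.4%) in LP. A test of whether the difference varied between the days called 0 probe sets (limma F-test of diet by day, smallest adjusted p = 0.982). Of 31042 probe sets, 1261 had an unadjusted p under 0.05 in this test, a share below 0.05. One of the genes with mixed signs, *Ankrd12*, an ankyrin repeat nuclear protein, differed by −0.02 at D5, 0.26 at D10 and 0.24 at D28 (averaged 0.16, adjusted p = 0.198).

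How far the differences were shared between the days was not settled by their correlations. Across all probe sets the LP minus CN differences of D5 and D28 correlated at r = 0.28 (0.13 to 0.36 with any 1 array left out), those of D5 and D10 at r = 0.09 (−0.03 to 0.24) and those of D10 and D28 at r = 0.08 (−0.13 to 0.32). These are correlations across genes, which are not independent replicates, and the days share no arrays. Probe sets chosen on 2 days at an unadjusted p under 0.01 had the same sign on the day not used for the choice in 505 of 645 cases at D28 (78.3%, against 56.8% of all probe sets), in 553 of 745 at D5 (74.2%, against 57.7%) and in 486 of 760 at D10 (63.9%, against 52.2%). At an unadjusted p under 0.001 the shares were 79.2% at D28, 74.7% at D5 and 74.1% at D10, against the same shares of all probe sets as above.

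The genes that were lower and higher differed in expression level. The 137 probe sets called lower had a median level of 5.42 and the 124 called higher a median of 7.28, against 6.80 over all probe sets. In the dimmest 20% of the probe sets 6 were called higher and 33 lower, in the next 20% 21 and 67, and in the brightest 20% 18 and 2. The median averaged difference of all probe sets was −0.03 in each of the 2 dimmest of these 5 bins and 0.01, 0.02 and 0.005 in the brighter ones. When the dimmest 50% was left out, 6 probe sets were called higher and 1 lower.

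**Figure D1:**
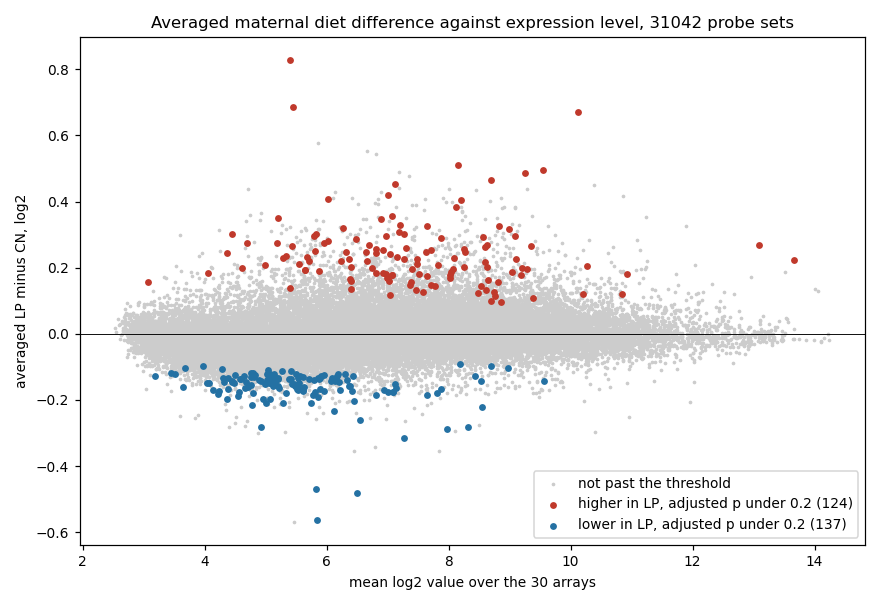
Averaged LP minus CN difference (log2, vertical axis) of each of the 31042 probe sets against its mean log2 value over the 30 arrays (horizontal axis), with the 124 probe sets called higher in LP and the 137 called lower in colour. Those called lower lie mainly at low levels (median 5.42) and those called higher at intermediate ones (median 7.28).

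The smallest p-value belonged to *Galnt5*, a Golgi enzyme that starts mucin-type O-glycosylation of proteins by adding N-acetylgalactosamine to serine or threonine. At D5, *Galnt5* measured 6.24, 6.15, 6.12, 6.11 and 6.20 in the D5-LP arrays, against 6.28, 6.24, 6.51, 6.40 and 6.28 in the D5-CN arrays. Its D10 values were 5.89, 6.08, 5.95, 6.10 and 5.95 in the D10-LP arrays, against 6.22, 6.24, 6.29, 6.27 and 6.12 in the D10-CN arrays. By D28 they were 5.76, 5.73, 5.83, 5.91 and 5.97 in the D28-LP arrays, against 6.19, 6.20, 6.08, 6.09 and 6.08 in the D28-CN arrays. At D10 and D28 every LP array lay below every CN array, and at D5 the highest LP and the lowest CN array met at 6.24. *Galnt5* fell by 0.23 on average (−0.18 at D5, −0.24 at D10 and −0.29 at D28, SE 0.03, limma adjusted p = 0.00205), and 15 of 15 LP arrays were below the CN mean of their day. Counts of arrays of this kind come from the same values as the averaged effect, so here and below they are a description. The call held in each of the 30 fits without 1 array (adjusted p 0.000948 to 0.00594), but not without D10 (adjusted p = 0.32). The level was low on this scale, and the array carries 1 probe set for this gene.

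*Phf14*, a PHD finger protein that binds histone H3, was higher in LP kidneys. At D5 its values were 6.82, 6.69, 6.99, 6.62 and 6.84 in the D5-LP arrays, against 6.42, 6.41, 6.70, 6.84 and 6.51 in the D5-CN arrays. The D10 arrays gave 6.80, 6.84, 6.89, 6.72 and 6.80 in the D10-LP arrays, against 6.33, 6.42, 6.50, 6.49 and 6.52 in the D10-CN arrays. For D28 the values were 7.17, 7.25, 7.28, 7.25 and 7.16 in the D28-LP arrays, against 7.02, 7.06, 7.03, 7.05 and 7.12 in the D28-CN arrays. The groups overlapped at D5 and were separate at D10 and D28. The averaged increase was 0.25 (0.22, 0.35 and 0.17 at D5, D10 and D28, SE 0.04, adjusted p = 0.0277, 15 of 15 LP arrays above the CN mean). It came from 1 of 5 probe sets of *Phf14*, and the others differed by 0.21, 0.02, 0.04 and −0.01 and did not pass. *Gxylt1*, a xylosyltransferase that extends O-glucose glycans on the EGF repeats of Notch receptors, was higher by 0.23 (0.21, 0.28 and 0.20 by day, SE 0.04, adjusted p = 0.056), while its brighter probe set differed by −0.002. Over all probe sets, 12 (0.0387%) had LP and CN arrays that did not overlap, in the same direction, at 2 or more days, and none did so at all 3. Of the 261 called, 7 were among these 12, *Galnt5*, *Phf14* and the homeobox gene *Hoxd11* included.

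**Figure D2:**
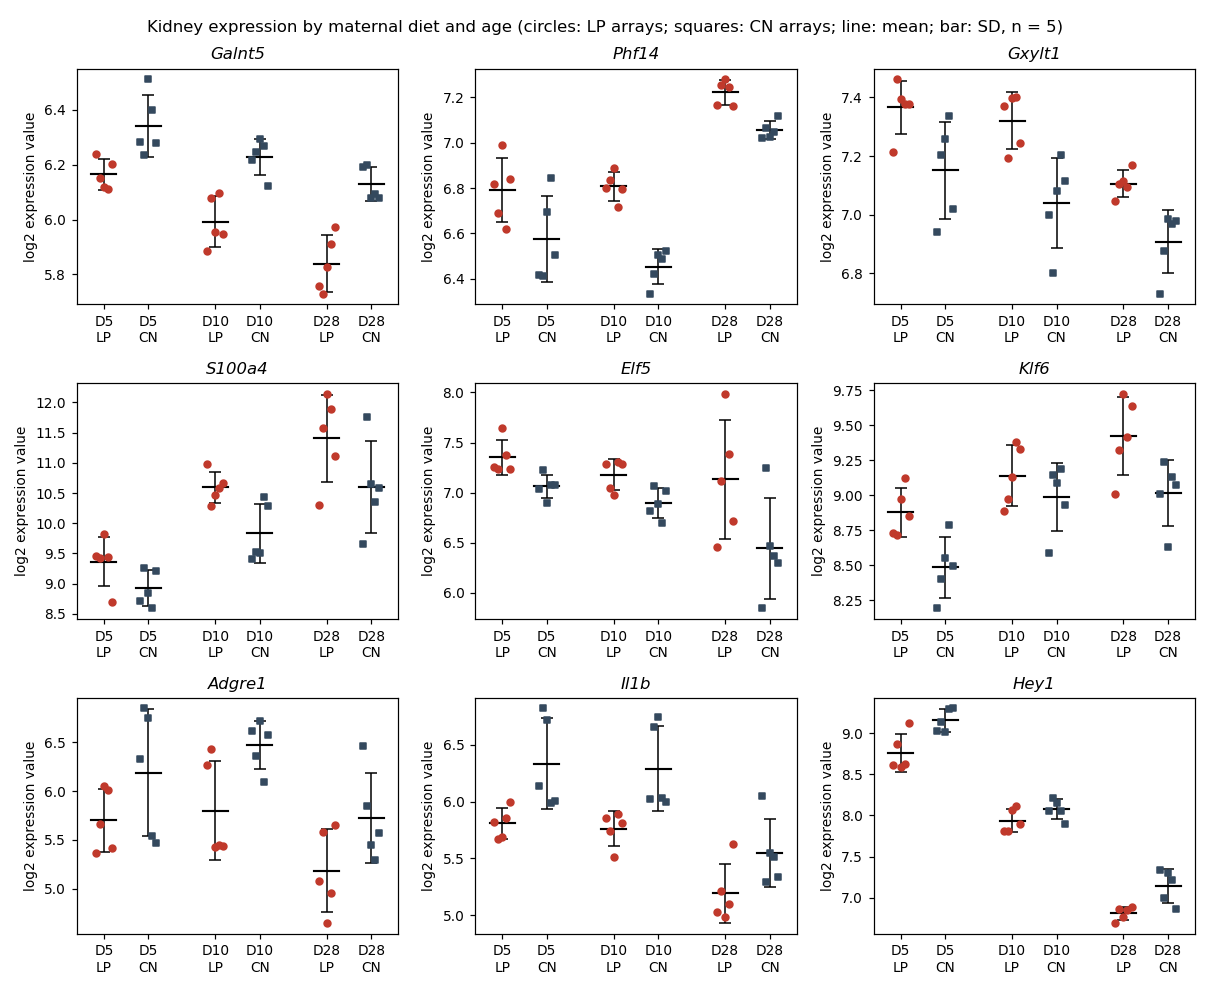
Log2 expression values (vertical axes) of 9 genes in each of the 30 arrays, with LP arrays as circles to the left of CN arrays (squares) at D5, D10 and D28, the mean as a line and the SD as a bar (n = 5). *Galnt5*, *Adgre1*, *Il1b* and *Hey1* lie lower in LP at each day and the other 5 higher, with groups that overlap at most days.

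Among the 15 named genes with the largest increase, *Pof1b*, an actin-binding protein of epithelial junctions, stood first at 0.83 (0.60 at D5, 1.05 at D10 and 0.83 at D28, SE 0.24, adjusted p = 0.198). Its arrays were widely spread, and its dimmer probe set differed by 0.19 (adjusted p = 0.413). At D10, *Pof1b* measured 7.29, 6.96, 6.62, 6.45 and 6.46 in the D10-LP arrays, against 5.49, 4.78, 4.60, 6.84 and 6.82 in the D10-CN arrays. CN replicates 4 and 5 were as high as the LP arrays and the other 3 CN arrays were lower. *Nxpe2* was higher by 0.69 in its brighter probe set (SE 0.19, adjusted p = 0.198) and differed by 0.09 in its dimmer one (adjusted p = 0.589). *Phactr1*, a regulator of protein phosphatase 1 and actin, was higher by 0.51 (SE 0.12, adjusted p = 0.189) and *Nipal1*, a magnesium transporter, by 0.38 (SE 0.10, adjusted p = 0.189). *Slc38a4*, a sodium-coupled neutral amino acid transporter, was higher by 0.41 (0.35, 0.31 and 0.56 by day), and the stress-response protein *Nupr1* by 0.47 (0.19, 0.41 and 0.79 by day, 15 of 15 LP arrays above the CN mean). *Hspa2*, a member of the HSP70 chaperone family, was higher by 0.45, the microtubule protein *Map1b* by 0.35 in 1 of 3 probe sets, and *C13h1orf116* and *Lrrfip1* by 0.33 each. Each of these genes passed the threshold of 0.2 on the probe set described, at adjusted p-values of 0.17 or more. The other probe sets of *Lrrfip1* differed by 0.16 and 0.17 and that of *Hspa2* by 0.37, and did not pass.

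*Crebbp*, a histone acetyltransferase and transcriptional coactivator, was higher by 0.36 (0.57, 0.29 and 0.21 by day, SE 0.08, adjusted p = 0.143). At D5 its values were 7.05, 7.41, 7.29, 7.09 and 7.14 in the D5-LP arrays, against 6.05, 6.62, 6.95, 6.99 and 6.53 in the D5-CN arrays. There the lowest LP array was above the highest CN array, and at D10 and D28 the groups overlapped. *Crebbp* has 5 probe sets, of which a second also passed (0.17, adjusted p = 0.198) and the others differed by 0.11, 0.04 and −0.03. *Atrx*, a chromatin remodeller that deposits histone H3.3, was higher by 0.35 (0.22, 0.59 and 0.24 by day, SE 0.07, adjusted p = 0.119), and 3 of its 6 probe sets passed, at 0.27, 0.25 and 0.35. The other 3 differed by 0.20, 0.03 and −0.03. Outside the rule for named genes, and chosen after their values were seen, *Chd2*, a chromatin remodeller, was higher by 0.28, *Nipbl*, which loads cohesin, by 0.20, *Ash1l*, a histone methyltransferase, by 0.20 and *Kdm5a*, a histone demethylase, by 0.19, each with the same sign at all 3 days and adjusted p-values of 0.189 to 0.198. For *Chd2*, *Nipbl*, *Ash1l* and *Kdm5a* the called probe set with the largest difference is given, and any others are not. Chromatin genes outside the rule that did not pass were not counted, so these additions give no support to a common direction. Because probe sets of one gene disagreed, the values in this paragraph describe the probe sets and not all transcripts of the genes.

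**Figure D3:**
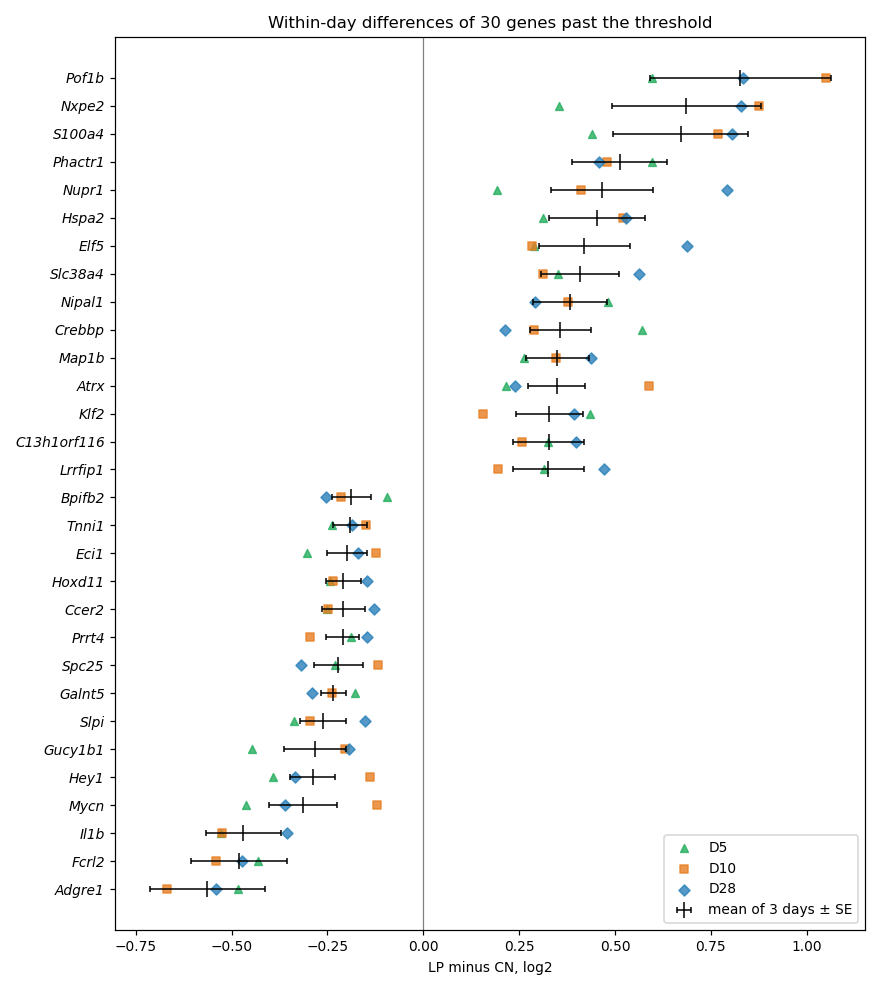
LP minus CN difference (log2, horizontal axis) at D5, D10 and D28 and the averaged difference with its SE, for the 15 genes with the largest increase and the 15 with the largest decrease among those called with the same sign at all 3 days. The increases run from 0.33 to 0.83 and the decreases from −0.19 to −0.56.

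The largest decrease among the called genes was that of *Adgre1*, the gene of the F4/80 antigen of macrophages. At D5, *Adgre1* measured 5.37, 5.66, 6.05, 6.02 and 5.42 in the D5-LP arrays, against 6.32, 6.84, 6.74, 5.54 and 5.47 in the D5-CN arrays. The D10 values were 6.26, 6.43, 5.43, 5.44 and 5.43 in the D10-LP arrays, against 6.61, 6.35, 6.71, 6.09 and 6.57 in the D10-CN arrays. At D28 they came to 5.08, 5.58, 4.65, 4.96 and 5.65 in the D28-LP arrays, against 6.46, 5.85, 5.45, 5.30 and 5.57 in the D28-CN arrays. The groups overlapped at each day, and 15 of 15 LP arrays were below the CN mean of their day. *Adgre1* fell by 0.56 (−0.48, −0.67 and −0.54 by day, SE 0.15, adjusted p = 0.189). *Fcrl2*, an Fc receptor-like gene, fell by 0.48 (−0.43, −0.54 and −0.47, SE 0.13, adjusted p = 0.189), also with 15 of 15 LP arrays below the CN mean.

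*Il1b*, which encodes the inflammatory cytokine interleukin-1 beta, was lower by a similar amount. The paper had already picked *Il1b*, *Slc14a2* and *Gucy1b3*, among others, from its transcriptome results, with primers for them in its supplement. At D5, *Il1b* measured 5.82, 5.67, 5.69, 5.86 and 6.0 in the D5-LP arrays, against 6.14, 6.82, 6.72, 5.99 and 6.01 in the D5-CN arrays. The D10 arrays read 5.86, 5.74, 5.51, 5.89 and 5.82 in the D10-LP arrays, against 6.02, 6.65, 6.75, 6.03 and 6.0 in the D10-CN arrays. For D28 the values were 5.03, 5.22, 4.99, 5.10 and 5.63 in the D28-LP arrays, against 6.05, 5.29, 5.54, 5.51 and 5.34 in the D28-CN arrays. At D10 the highest LP array was below the lowest CN array, at D5 the groups met at about the same value, and at D28 one LP array (replicate 5) lay among the CN arrays. The average fell by 0.47 (−0.53, −0.53 and −0.35, SE 0.10, adjusted p = 0.119, 14 of 15 LP arrays below the CN mean), and the call held in 26 of the 30 fits without 1 array. It was lost in each fit without a day (adjusted p 0.261 to 0.401). In the same 30 fits the call held in 7 for *Pof1b*, 9 for *Elf5*, 10 for *Adgre1* and *S100a4*, 11 for *Fcrl2* and 12 for *Klf6*. It held in 26 for *Hey1* and 30 for *Phf14*. *Slpi*, a secreted inhibitor of leukocyte proteases, fell by 0.26. Outside the rule, and chosen after their values were seen, the chemokine *Ccl4* fell by 0.17 and *Lst1*, a gene of leukocytes, by 0.18.

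Macrophage and antigen presentation genes as a list gave a weaker picture than *Adgre1*. Of 20 measured genes, 15 were below 0 on average, 9 were lower at all 3 days and none was higher at all 3, 1 (*Adgre1*) was called, and the median averaged difference was −0.09 (−0.07, −0.20 and −0.05 at D5, D10 and D28). Over all 14217 genes with a symbol, 7480 were below 0 (52.6%), 17.2% were lower and 12.3% higher at all 3 days, 0.739% were called, and the median was −0.003. *Lyz2*, macrophage lysozyme, differed by −0.30 (adjusted p = 0.258), *Fcer1g*, an Fc receptor chain, by −0.18 (adjusted p = 0.255) and *Laptm5*, a lysosomal protein of leukocytes, by −0.13 (adjusted p = 0.253), whereas the macrophage genes *Cd68* at −0.03 and *Csf1r* at −0.05 were near 0 and *Cd163* was at 0.12. The mean level of the list ran from 6.82 to 7.48 in the D10-LP arrays, against 7.17 to 7.44 in the D10-CN arrays. In whole kidneys, fewer cells of a type and less RNA per cell cannot be told apart. Of 21 inflammatory genes, 11 were below 0 with 1 called (*Il1b*) and a median of −0.02. *Tnf* differed by −0.09 and *Il6* by −0.02.

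Genes of growth and patterning were among the other decreases. *Hey1*, a transcriptional repressor induced by Notch signalling, fell by 0.29 (−0.39, −0.14 and −0.33 by day, SE 0.06, adjusted p = 0.119). At D28, *Hey1* measured 6.69, 6.86, 6.77, 6.85 and 6.88 in the D28-LP arrays, against 7.34, 6.99, 7.30, 7.22 and 6.87 in the D28-CN arrays. The highest LP and the lowest CN array met at about the same value there, and at D5 and D10 the groups overlapped more. *Mycn*, a transcription factor of nephron progenitors, fell by 0.31 (−0.46, −0.12 and −0.36, SE 0.09, adjusted p = 0.198), and *Hoxd11*, a homeobox gene needed for metanephric growth in the mouse, by 0.21 (−0.24, −0.23 and −0.15, SE 0.04, adjusted p = 0.119). *Gucy1b1*, a subunit of the nitric oxide receptor guanylate cyclase, fell by 0.28 (−0.45, −0.20 and −0.19), while its dimmer probe set differed by −0.17 (adjusted p = 0.367). *Spc25*, a kinetochore protein, fell by 0.22, and the transcripts *Prrt4* (−0.21), *Ccer2* (−0.21), *Eci1* (−0.20), *Tnni1* (−0.19) and *Bpifb2* (−0.19) were low in signal, between 4.36 and 5.86. The brighter probe set of *Eci1*, an enzyme of fatty acid oxidation, differed by 0.08, that of *Prrt4* by −0.05 and that of *Tnni1* by −0.10.

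Cell proliferation genes differed in one direction in size but not in calls. All 28 measured genes were below 0 on average, against 52.6% of all genes, 13 were lower at all 3 days and none was called, with a median of −0.11 (−0.18 at D5, 0.01 at D10 and −0.18 at D28). The smallest adjusted p on the list was 0.312, for *Birc5*, which encodes survivin (−0.16), followed by the spindle protein *Nusap1* at −0.16 (adjusted p = 0.318). *Mki67* differed by −0.14 and *Cdk1* by −0.15, the replication helicase gene *Mcm2* by −0.03. Outside the list, and chosen after their values were seen, 3 further genes of cell division fell, *Cdc45*, which starts DNA replication, by 0.18, the centriole gene *Stil* by 0.19 and the spindle gene *Psrc1* by 0.17, with adjusted p-values of 0.189 to 0.198. Cell division genes outside the list that did not pass were not counted, so these add no support to the list. Of 15 nephron progenitor and branching genes, 11 were below 0 with none called (median −0.05), and *Wnt4*, which drives the formation of renal vesicles, was at 0.40 (adjusted p = 0.303). The smallest p on this list was that of *Eya1*, a transcriptional coactivator of nephron progenitors, at −0.17 (−0.39, 0.02 and −0.15 by day, adjusted p = 0.245). *Mycn* and *Hoxd11*, described above, are outside the list.

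On the side of the increases, genes of the inner medulla and of the principal cells of the collecting duct lay above 0. Of 14 inner medulla markers, 13 were above 0 and 9 were higher at all 3 days, against 47.4% and 12.3% of all genes. Their median was 0.22 (0.23, 0.11 and 0.28 at D5, D10 and D28), and 1 was called, *S100a4*, a calcium-binding protein. At D5, *S100a4* measured 9.46, 9.42, 9.82, 9.43 and 8.70 in the D5-LP arrays, against 8.72, 9.26, 8.85, 8.59 and 9.21 in the D5-CN arrays. The D10 values were 10.98, 10.29, 10.46, 10.59 and 10.67 in the D10-LP arrays, against 9.41, 9.52, 9.52, 10.44 and 10.28 in the D10-CN arrays. At D28 they were 10.30, 11.57, 12.14, 11.89 and 11.12 in the D28-LP arrays, against 9.66, 11.75, 10.65, 10.35 and 10.58 in the D28-CN arrays. The groups overlapped at each day, and at D28 a CN array (replicate 2) was higher than 3 of the 5 LP arrays. *S100a4* was higher by 0.67 (0.44, 0.77 and 0.81 by day, SE 0.18, adjusted p = 0.189).

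Other inner medulla genes were near the threshold. *Akr1b1*, the aldose reductase that makes the osmolyte sorbitol, differed by 0.33 (adjusted p = 0.242), the small heat shock protein *Cryab* by 0.22 (adjusted p = 0.221) and *S100a6* by 0.42 (adjusted p = 0.307). *Slc14a2*, the urea transporter of the collecting duct, differed by 0.41 in its brightest probe set (adjusted p = 0.246) and was higher by 0.28 in another (0.05, 0.45 and 0.32 by day, adjusted p = 0.189), the only one of its 5 probe sets past the threshold. Of 12 principal cell markers, 12 were above 0 and 8 were higher at all 3 days, with a median of 0.17 and 1 called, *Elf5*, a transcription factor of this cell type. At D28, *Elf5* measured 6.46, 7.12, 7.99, 7.38 and 6.71 in the D28-LP arrays, against 5.84, 7.25, 6.46, 6.37 and 6.29 in the D28-CN arrays. One array of each diet (D28-LP replicate 3 and D28-CN replicate 2) stood above the rest of its group. *Elf5* was higher by 0.42 (0.29, 0.28 and 0.69 by day, SE 0.12, adjusted p = 0.198, 15 of 15 LP arrays above the CN mean). The aquaporins *Aqp2* and *Aqp3* differed by 0.15 and 0.20, *Fxyd4*, a regulator of the sodium pump, by 0.28 (adjusted p = 0.255), and the sodium channel subunits *Scnn1a*, *Scnn1b* and *Scnn1g* by 0.03, 0.01 and 0.06.

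Cortex markers did not follow. Of 12, 7 were above 0, none was called, and the median was 0.002. The mean of the inner medulla markers was 10.26 ± 0.23 in D5-LP and 10.03 ± 0.21 in D5-CN kidneys, 10.77 ± 0.08 in D10-LP and 10.52 ± 0.21 in D10-CN, and 11.17 ± 0.22 in D28-LP and 10.89 ± 0.23 in D28-CN (SD, n = 5 arrays each). The cortex mean was 11.16 ± 0.13 in D5-LP and 11.09 ± 0.20 in D5-CN, 11.17 ± 0.14 in D10-LP and 11.20 ± 0.21 in D10-CN, and 11.32 ± 0.25 in D28-LP and 11.42 ± 0.26 in D28-CN. The difference of these means, a medulla minus cortex score, was higher in LP by 0.16 at D5, 0.27 at D10 and 0.39 at D28, or 0.27 on average (2-sided exact permutation of diet within days, p = 0.0250). The marker lists were chosen with earlier results of these data known, so this p-value is a description and no independent evidence. Single arrays of a group differed by more, with scores from −0.70 to 0.44 in D28-LP and from −1.02 to 0.23 in D28-CN. Adjusted for this score, the averaged difference of *S100a4* became 0.30 (adjusted p = 0.407), that of *Elf5* 0.19 (adjusted p = 0.488), that of *Pof1b* 0.42 (adjusted p = 0.498) and that of *Adgre1* −0.40 (adjusted p = 0.413). Those of *Galnt5* (−0.24, adjusted p = 0.0128) and *Phf14* (0.22, adjusted p = 0.228) stayed close to their sizes without it. *S100a4* is one of the markers in the score, and the dissection that would set the share of medulla in a sample is not described in the sources used here, so its part in the result was not tested.

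**Figure D4:**
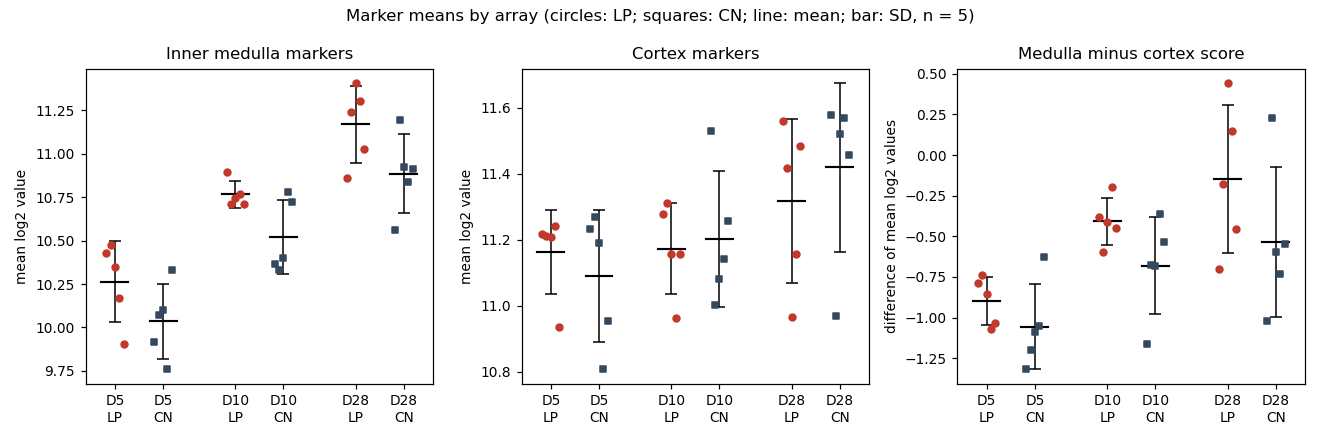
Mean log2 value of the inner medulla markers and of the cortex markers, and the medulla minus cortex score (vertical axes), in each array of LP (circles, left) and CN (squares, right) kidneys at D5, D10 and D28, with the mean and SD (n = 5). The inner medulla means are higher in LP at each day by 0.23 to 0.28, and the score varies by more than 1 among the arrays of a D28 group.

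Immediate early genes, whose transcription starts within minutes of a stimulus, contained a small set of increases. Of 21 measured, 13 were above 0, 5 were higher and 4 lower at all 3 days, and the median was 0.08 (0.05, −0.03 and 0.20 at D5, D10 and D28). *Klf6*, a zinc finger transcription factor, was called. At D5, *Klf6* measured 8.73, 8.71, 8.97, 9.13 and 8.85 in the D5-LP arrays, against 8.19, 8.40, 8.55, 8.79 and 8.50 in the D5-CN arrays. The D10 values were 8.89, 8.97, 9.13, 9.38 and 9.33 in the D10-LP arrays, against 8.59, 9.14, 9.09, 9.19 and 8.93 in the D10-CN arrays. At D28 they were 9.01, 9.32, 9.72, 9.42 and 9.64 in the D28-LP arrays, against 9.01, 9.24, 8.63, 9.13 and 9.08 in the D28-CN arrays. The groups overlapped at each day. *Klf6* was higher by 0.32 (0.39, 0.15 and 0.41, SE 0.08, adjusted p = 0.189), and its other probe sets differed by 0.21 and 0.14. *Dusp1*, a phosphatase that switches off MAP kinases, was higher by 0.32 in one probe set (0.31, 0.07 and 0.58, adjusted p = 0.189) and differed by 0.31 in its brighter one (adjusted p = 0.312). *Klf2*, a flow-responsive factor of endothelium, was higher by 0.33 in 1 of 5 probe sets (0.44, 0.16 and 0.39), while its brightest probe set differed by 0.20 (adjusted p = 0.528) and the others by −0.02, −0.04 and −0.08. *Fos* (0.04), *Egr1* (−0.10) and *Junb* (−0.03), which react to the same kinds of stimuli, were near 0, and *Fosb* was at −0.28 (−0.08, −0.13 and −0.63, adjusted p = 0.643). The 4 members lower at all 3 days were *Fosb*, *Fosl1*, *Egr1* and *Egr3*, none of them called.

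The upstream sequences of *Klf6* and *Dusp1* are shown because these were the called genes of this list for which the RefSeq promoter table (build GRCr8) holds an entry, a choice made after their values were seen. Each is the 250 bases before the annotated start, 5′ to 3′ on the gene's strand, with E-boxes (CACGTG) and CRE cores (TGACG, either strand) in capitals. *Klf6* lies on the minus strand at chr17:69458479-69458728 and *Dusp1* on the plus strand at chr10:17184603-17184852.
Klf6: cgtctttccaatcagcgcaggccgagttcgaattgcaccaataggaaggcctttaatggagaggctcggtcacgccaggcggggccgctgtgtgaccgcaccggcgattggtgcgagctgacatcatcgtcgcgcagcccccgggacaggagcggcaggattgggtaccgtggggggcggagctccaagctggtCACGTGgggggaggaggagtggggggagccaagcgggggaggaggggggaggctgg
Dusp1: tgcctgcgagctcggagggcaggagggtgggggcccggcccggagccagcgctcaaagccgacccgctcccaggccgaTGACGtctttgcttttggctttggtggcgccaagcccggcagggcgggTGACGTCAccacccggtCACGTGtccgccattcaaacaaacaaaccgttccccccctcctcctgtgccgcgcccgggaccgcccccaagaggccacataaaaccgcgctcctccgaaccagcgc
Each holds 1 E-box, 56 bases before the start of *Klf6* and 107 bases before that of *Dusp1*, a motif found in 5.59% of 33469 promoters of this length. *Dusp1* also holds 3 CRE cores, of which 2 overlap as the palindrome of both strands, and *Klf6* none, against 18.2% of all promoters with at least 1. The looser serum response element pattern matched 5 times in each and is present in 65.1% of promoters, and neither window holds the ROR element AGGTCA (14.1% of promoters) or the heat shock element GAANNTTC (7.23%). A match is a description of the letters in these windows.

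Where medians of the next lists are given by day, the difference between days was not tested. Heat shock and chaperone genes were above 0 in 17 of 23 cases, 10 of them at all 3 days and none called, where 47.4% of all genes were above 0 and 12.3% at all 3 days, with medians of 0.02 at D5, 0.03 at D10 and 0.18 at D28, and the inducible chaperone *Hspa1a* was at 0.30 (adjusted p = 0.313). The called *Hspa2* is outside this list. Smooth muscle and pericyte markers were above 0 in 12 of 12 (median 0.09, but 0.004 at D10). Endothelial markers were above 0 in 13 of 14 (median 0.09, but −0.07 at D10 and −0.01 after adjustment for the medulla marker score). None was called in either list. Of 24 genes of the amino acid response, which is set off by a shortage of amino acids, 15 were above 0 and 1 was called (*Nupr1*), with a median of 0.03. There the asparagine synthetase *Asns* was at 0.20 (adjusted p = 0.27) and *Gdf15* at 0.30 (adjusted p = 0.206), whereas *Trib3* was at −0.10 and *Chac1* at −0.05. Lists of fatty acid oxidation (median 0.02), the respiratory chain (−0.02), cytosolic ribosomal proteins (−0.01), cholesterol synthesis (−0.02) and DNA methylation and one-carbon enzymes (−0.01) had no called gene and averaged medians near that of all genes. Their medians changed sign between days. At D5, D10 and D28 they were 0.06, 0.06 and −0.05 for fatty acid oxidation and −0.01, 0.05 and −0.08 for the respiratory chain. Ribosomal proteins were at −0.04, −0.01 and 0.02, cholesterol synthesis at 0.04, 0.04 and −0.15, and DNA methylation and one-carbon enzymes at −0.03, 0.05 and −0.07.

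In 4 lists tied to blood pressure and to prenatal programming, no gene passed the threshold on its brightest probe set, while *Gucy1b1*, described above, is outside them and *Dusp1*, on the glucocorticoid list, passed on its dimmer probe set. Of 11 renin-angiotensin genes, 6 were above 0 and none was called (median 0.02), and the angiotensin-converting enzyme *Ace* was at 0.11 on 1 probe set (adjusted p = 0.407) and at −0.05 on the other (adjusted p = 0.662). Of 16 sodium transport genes, 12 were above 0 and none was called (median 0.02), and *Nedd4l*, a ubiquitin ligase that removes the epithelial sodium channel, was at 0.10 (adjusted p = 0.296). Glucocorticoid and mineralocorticoid genes were above 0 in 12 of 14 cases with none called and a median of 0.09, and the median of D28 alone was 0.30, beside −0.02 at D5 and 0.01 at D10. Of 21 genes of insulin-like growth factor and insulin signalling, 13 were above 0 with none called, and *Pik3r1*, a regulatory subunit of PI3 kinase, was at 0.10 (adjusted p = 0.249).

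On the lists of the extracellular matrix most genes lay above 0 on average without passing the threshold, but not at each day. Of 17 basement membrane genes, 15 were above 0 with none called (median 0.04), *Col18a1* at 0.20 (adjusted p = 0.478) among them, and of 22 interstitial matrix genes, 20 were above 0 with none called (median 0.07), with 5 and 7 genes of these lists higher at all 3 days and D10 medians of −0.06 and −0.02. Adjusted for the medulla marker score, both medians were −0.04. The collagen-binding protein *Sparc* was at 0.13 (adjusted p = 0.36) and 0.32, 0.03 and 0.03 by day. *Col4a6*, a chain of the type IV collagen of basement membranes that is outside these lists and was chosen after its values were seen, was higher by 0.30 (0.12, 0.30 and 0.47 by day, SE 0.07, adjusted p = 0.189), with 15 of 15 LP arrays above the CN mean of their day, and its second probe set was at 0.13 (adjusted p = 0.254). Of 17 circadian clock genes, 14 were above 0 and none was called (median 0.08), the clock activator *Clock* at 0.07 (adjusted p = 0.261) and *Rora*, which drives *Bmal1* transcription, at 0.14 (adjusted p = 0.302). The 4 probe sets of *Clock* ranged from −0.06 to 0.14 and the 2 of *Rora* from −0.05 to 0.14, so that they differed in sign within each gene. Among 12 Wnt targets, 9 were above 0 and 2 were higher at all 3 days with none called (median 0.03, but −0.05 at D10 and −0.02 after the same adjustment), the feedback inhibitor *Axin2* at 0.32 (adjusted p = 0.334) and *Myc* at 0.27 (adjusted p = 0.248). Of 21 interferon response genes, 16 were above 0 and 4 were higher at all 3 days with none called (median 0.06, but −0.05 at D10 and −0.03 after the same adjustment), whereas *Ifit1* was at −0.16 (adjusted p = 0.279), and *Epo*, the hypoxia-induced hormone of renal fibroblasts, was also at −0.16 (adjusted p = 0.255). Among 20 antioxidant genes, 12 were above 0 with none called, and the glutathione transferases *Gstp1* and *Gstm1* were at 0.13 and 0.11 (adjusted p = 0.325 and 0.303).

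**Figure D5:**
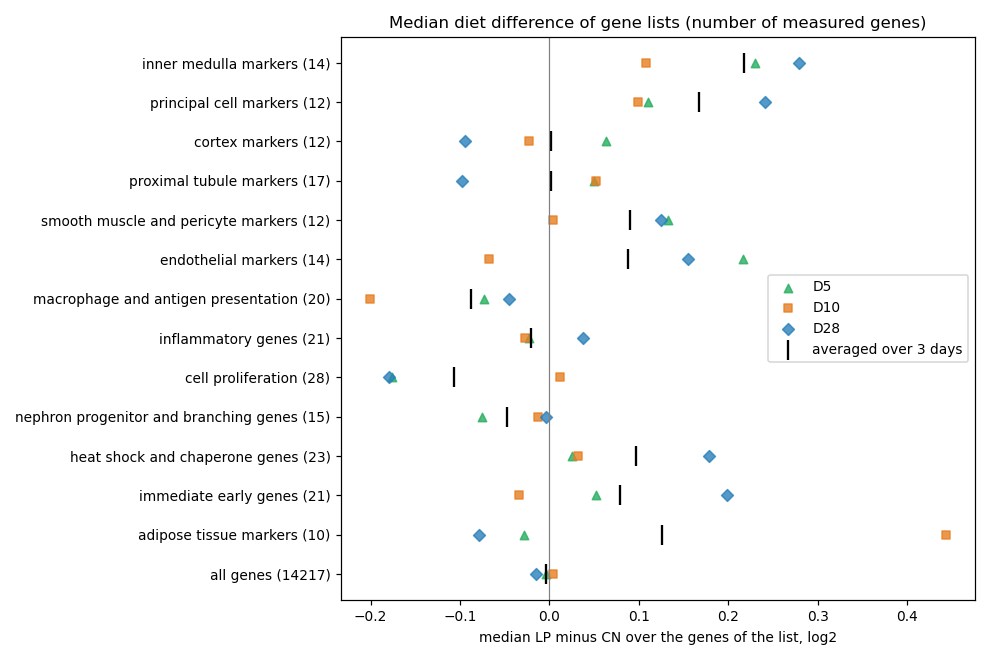
Median LP minus CN difference (log2, horizontal axis) over the measured genes of 13 gene lists and of all 14217 genes at D5, D10, D28 and averaged over the days. Inner medulla and principal cell markers lie above 0 at each day, macrophage genes below 0 at each day, and the D10 median of the adipose markers stands at 0.44 beside −0.03 at D5 and −0.08 at D28.

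Tissue next to the kidney was followed with markers of its own. Adipose markers were above 0 in 9 of 10 cases with none called (median 0.13), from a difference at D10 alone, where their mean level ran from 7.08 to 8.84 in D10-LP arrays, against 7.44 to 8.07 in D10-CN arrays. Brown fat *Ucp1* differed by −0.16 at D5, 0.61 at D10 and −0.34 at D28. Red blood cell markers were above 0 in 4 of 7, and 2 were higher and 3 lower at all 3 days. Their median was 0.05 (−0.0001, −0.07 and 0.01 at D5, D10 and D28). The 1 called was *Alas2*, the first enzyme of heme synthesis in erythroid cells (0.30, with 0.47, 0.26 and 0.15 by day, adjusted p = 0.189), and the globin *Hbb* was at 0.19 (adjusted p = 0.205). Skeletal muscle (2 of 15 above 0) and adrenal markers (2 of 11 above 0) had medians of −0.03 each and no call. RNA quality, taken as the 3′ minus 5′ difference of the *Actb* and *Gapdh* controls, which grows with degradation, differed by 0.03 on average (exact permutation of diet within days, p = 0.484). The part of adjacent tissue in the D10 differences was not tested.

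In the main fit over all probe sets, no candidate gene of the study passed when averaged over the ages. *Ptger1*, the prostaglandin E2 receptor EP1, had the following values. At D5, *Ptger1* measured 5.56, 5.43, 5.69, 5.63 and 5.17 in the D5-LP arrays, against 5.32, 5.17, 4.91, 5.45 and 5.38 in the D5-CN arrays. The D10 arrays gave 5.42, 5.24, 5.36, 5.49 and 5.24 in the D10-LP arrays, against 5.06, 5.11, 5.18, 5.34 and 5.21 in the D10-CN arrays. By D28 the values were 6.14, 6.54, 7.36, 6.82 and 5.96 in the D28-LP arrays, against 5.89, 6.66, 5.83, 5.58 and 6.16 in the D28-CN arrays. The groups overlapped at each day, and 13 of 15 LP arrays lay above the CN mean. *Ptger1* differed by 0.32 (0.25, 0.17 and 0.54 by day, SE 0.11, limma adjusted p = 0.249 over all probe sets). Exact permutation of diet within days, D28 included, gave p = 0.00694 for *Ptger1* taken alone. The gene passed in 4 of the 30 fits without 1 array. It was chosen by the study from genes shared by its D28 array and methylome results, so its D28 array values are no independent evidence. Over D5 and D10 alone it differed by 0.21 (adjusted p = 0.456). Adjusted for the medulla marker score its averaged value was 0.11 (adjusted p = 0.653). By qPCR, which is not part of these data, the paper reported higher *Ptger1* mRNA in LP pups, most clearly at D28. It also reported higher methylation of the *Ptger1* CpG island.

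*Tbx3*, a T-box repressor, differed by 0.41 (0.26, 0.23 and 0.74, adjusted p = 0.225) and by 0.14 after the same adjustment (adjusted p = 0.606). *Proser2* was at 0.24 with a mixed sign (0.34, −0.07 and 0.45, adjusted p = 0.401), *Gnas*, the stimulatory G protein alpha subunit, at 0.07 (0.07, 0.05 and 0.09, adjusted p = 0.53), *Kank3* at 0.10 (0.01, −0.03 and 0.33, adjusted p = 0.756) and *Runx1* at 0.10 (0.05, −0.06 and 0.29, adjusted p = 0.727). Exact permutation of diet within days, each gene taken alone and unadjusted, gave p = 0.00676 for *Tbx3* and 0.0473 for *Proser2*. It gave 0.0844 for *Gnas*, 0.316 for *Kank3* and 0.271 for *Runx1*. *Tbx3* passed in 5 of the 30 limma fits without 1 array. The study took all 6 candidates from the overlap of its D28 array and D28 methylome results. Averages that hold D28, and the exact p-values of those averages, are therefore no independent evidence of a difference. The qPCR of the paper also gave higher *Gnas* mRNA in D28-LP pups. Over D5 and D10 alone *Tbx3* was at 0.25 (adjusted p = 0.641), *Proser2* at 0.13 (adjusted p = 0.849), *Gnas* at 0.06 (adjusted p = 0.867), *Kank3* at −0.01 (adjusted p = 0.994) and *Runx1* at −0.004 (adjusted p = 0.998). The reference genes *Gusb* and *Tbp* differed by −0.01 each. *Ptgs1*, the constitutive cyclooxygenase upstream of prostaglandin E2, was at 0.40 (0.20, 0.44 and 0.57, adjusted p = 0.249), on a prostanoid list of 18 genes of which 6 were above 0 and none was called.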

How the data were processed

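RNA of whole kidneys was measured on 30 Affymetrix GeneChip rat arrays, 5 in each of 6 groups. The values the authors deposited are log2 expression levels, normalized by them, with 1 per probe set in every array, and were used as given. Whether the ages were normalized together is not given in the sources used here, so levels were not compared between days. The deposited tables for each age hold 30 array columns that name no sample and the authors' fold changes and rank product scores, and these were not used. Array means ran from 6.85 to 6.94 and replicate arrays correlated at 0.983 to 0.998. The number of arrays limits the precision.

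After 57 control probe sets were left out, 31042 were tested, of which 20826 carried 1 gene symbol (14217 genes), 436 several and 9780 none. The averaged diet effect was fitted in limma 3.58.1 (R 4.3.3) as diet with day as a block (lmFit and eBayes, 2-sided), with Benjamini-Hochberg adjustment over all probe sets and the threshold of 0.2 that the methods use. The diet by day F-test used 6 group means. In the lists, the brightest probe set stood for a gene. Exact permutations exchanged diet within each day (252 splits a day). The fits were run on simulated data with independent noise in each probe set. That setting holds no spread shared across an array, so it cannot show how the counts behave with such spread. The members and gene lists were chosen with earlier results of these data known.

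The genes named were the 15 called with 1 symbol, the same sign at all 3 days and the largest difference either way (without numbered placeholder names), for each list up to 4 called members or otherwise the 2 with the smallest p, the study's candidate and reference genes, and called genes with mixed signs. Other genes were named after their values were seen. *Actb* and *Gapdh* were not analysed here as genes. Alternatives covered the scaling, filter, variance model, test, threshold, covariates, replicate block and the leaving out of each array or day. Scripts also used Python 3.11.15 with numpy 2.4.6, and pandas 2.3.3, R's data.table package (1.17.8) and matplotlib 3.10.9.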

Additional observations from a re-analysis of the deposited data

Results flagged for a closer look

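Single arrays stood apart from the other 4 of their group in 26 of 558 comparisons, over 89 genes and 4 marker or control means and 6 groups, by a gap of over 0.71 of the group's range (Dixon's test). Chance flags about 1 in 20 groups. No explanation was tested. One array was the highest for *Phactr1* at 9.64 in D28-CN replicate 2 (next array 9.03), *Klf2* at 7.27 in D10-CN replicate 2 (next array 6.87), *Mycn* at 9.13 in D5-LP replicate 5 (next array 8.49) and *Slpi* at 6.42 in D5-LP replicate 5 (next array 6.28). The same held for *Eci1* at 4.69 in D28-CN replicate 3 (next array 4.43), *Gnas* at 12.88 in D28-CN replicate 2 (next array 12.69), *Dusp1* at 6.31 in D10-CN replicate 2 (next array 5.86) and *Ehd3* at 7.23 in D28-CN replicate 5 (next array 6.65). Further high arrays were those of *Rora* at 7.71 in D10-LP replicate 1 (next array 7.44), *Rora* at 8.55 in D28-LP replicate 1 (next array 8.38), *Cdc45* at 8.10 in D10-CN replicate 4 (next array 7.88) and *Psrc1* at 7.97 in D5-LP replicate 5 (next array 7.69). Another high array was that of *Lyz2* at 10.42 in D10-CN replicate 3 (next array 10.07). One array was the lowest for *Nxpe2* at 6.07 in D10-LP replicate 2 (next array 6.58), *Nupr1* at 7.50 in D10-CN replicate 1 (next array 8.39), *Crebbp* at 6.88 in D10-LP replicate 2 (next array 7.32) and *C13h1orf116* at 8.53 in D28-LP replicate 5 (next array 9.29). Low arrays were also found for *Prrt4* at 5.06 in D10-CN replicate 3 (next array 5.16), *Alas2* at 8.06 in D5-CN replicate 1 (next array 8.35), *Alas2* at 8.07 in D10-CN replicate 4 (next array 8.71) and *Des* at 7.69 in D5-LP replicate 5 (next array 7.86). The remaining low arrays were those of *Clock* at 8.41 in D10-CN replicate 5 (next array 8.48), *Asns* at 6.85 in D28-LP replicate 5 (next array 7.35), *Col4a6* at 6.85 in D10-CN replicate 1 (next array 7.06), the mean of the cortex markers at 10.93 in D5-LP replicate 5 (next array 11.21) and the mean of the cortex markers at 10.97 in D28-CN replicate 2 (next array 11.46).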

How the results depend on the processing

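The number of probe sets called (261, 124 higher and 137 lower in LP) moved under most alternatives. It was 97 (48 and 49) with 6 group means, 49 (18 and 31) after quantile normalization, 51 (21 and 30) after cyclic loess, which was chosen after seeing the data, 1423 (286 and 1137) after median centring, 7 (6 and 1) without the dimmest 50% of the probe sets, 3482 (1676 and 1806) with array weights, 99 (42 and 57) by the methods' 2-way ANOVA after adjustment, 2810 by rank products (2112 and 698 by the sign of the averaged difference, or 2210 and 752 by the direction of the rank product, with some called in both) and 2 (1 and 1) at a threshold of 0.05. It was 6 (4 and 2) without day 5, 0 without day 10, where 0 were higher and 0 lower, 11 (6 and 5) without day 28, 1 (0 and 1) adjusted for the medulla minus cortex score and 1084 (488 and 596) adjusted for the 3′ minus 5′ difference. With a trended and robust variance 251 were called, 241 of them shared with the 261. Without D28-CN replicate 2 and D28-LP replicate 3 together, an alternative chosen after seeing the data, 200 were called, of which 76 were lower. The causes were not tested, apart from the fewer probe sets or samples that some alternatives hold by construction. Without 1 array the count ran from 3 to 1334 (2 to 506 higher and 1 to 828 lower) and moved by over 1.5 times for 26 of the 30 arrays. It was 3 without D5-CN replicate 2 or D5-LP replicates 2 or 3, 4 without D28-LP replicate 3, 10 without D10-CN replicate 1, 24 to 52 without D5-CN replicates 1 or 3, D5-LP replicate 4, D10-CN replicates 4 or 5, D10-LP replicates 1, 3, 4 or 5, D28-CN replicates 1, 3 or 5 or D28-LP replicates 2 or 4, 140 without D10-CN replicate 2, 430 without D28-LP replicate 1, 524 without D5-CN replicate 4, 577 without D5-LP replicate 5, 802 without D28-CN replicate 2, 1045 without D5-CN replicate 5 and 1334 without D28-LP replicate 5. With the replicate number as a block, 5 probe sets were called (3 higher and 2 lower). The numbers did not pair the arrays, since 4 of 15 same-numbered pairs correlated above 0.1 in their deviations (from −0.70 to 0.65) and 2 of 15 LP arrays correlated best with their own number. Probe sets with the same sign at all 3 days numbered 3918 (2511 and 1407) without the dimmest 50%, and 8428 to 11944 (3258 to 5194 higher and 5108 to 6750 lower) without 1 array. The diet by day test called 0 to 5 probe sets without 1 array, the 5 without D28-CN replicate 2. The share with the same sign on the day left out became 77.7% at D5, 70.1% at D10 and 82.4% at D28 after median centring, 74.1% at D10 at p under 0.001 and 73.5% at D28 after quantile normalization. *Kank3* reversed to −0.00974 without day 28 and −0.0772 adjusted for the score, and *Runx1* to −0.00404 and −0.0234. *Tbp* reversed to 0.0395 without day 5 and 0.00530 without day 28 and ran from −0.0296 to 0.00186 without 1 array, above 0 without D5-CN replicate 4 or D10-CN replicate 5, and *Gusb* reversed to 0.00648 without day 10. The medians of 24 of 40 gene lists changed sign under at least 1 alternative, 9 with the medulla minus cortex score (sizes up to 0.09 before it), 10 without day 10, 9 without day 5, 5 without day 28, 5 after median centring, 1 when probe sets were averaged per gene and 8 without 1 array (sizes up to 0.02). The other 16 kept theirs, among them cell proliferation, inner medulla, principal cell, macrophage, heat shock and immediate early genes.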
